A study of Mus musculus with 6 samples.

Results

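Sox proteins are transcription factors that bind DNA through an HMG box, a domain that bends the double helix. The family falls into subgroups by the sequence of that box. SoxB1 proteins (Sox2) activate genes of early epithelia and neural progenitors, and SoxB2 proteins (Sox21) mostly repress. SoxC proteins (Sox4, Sox11, Sox12) are widespread activators in embryonic progenitors. SoxD proteins (Sox5, Sox6, Sox13) carry no activation or repression domain of their own and work with partner proteins. SoxE proteins (Sox8, Sox9) act in cartilage, neural crest and several epithelia, and in the limb bud Sox9 is best known as the factor that starts cartilage formation in the mesenchyme, together with Sox5 and Sox6.

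The RNA of 10 Sox genes was read in the ectoderm of the mouse forelimb bud at E10.5, out of 49452 genes in the table and 20 genes of the Sox family in it. The 10 genes were chosen by symbol: Sox2, Sox4, Sox5, Sox6, Sox8, Sox9, Sox11, Sox12, Sox13 and Sox21. The higher level of Sox9 in the mutant was part of that choice, so differences between the genotypes in these 10 genes are given here as a description, with no p-value. Called means that a gene passed the threshold of a fit over all genes (an adjusted p below 0.05). The study compared 3 Sp8 null embryos with 3 wild-type embryos, each library holding the ectoderm of both forelimbs of 1 embryo, freed with 0.25% trypsin for 20 minutes and fine forceps. Sp8 encodes a zinc finger protein that the limb bud's surface layer needs for limb outgrowth. The mutants, labelled Sp8 null (Sp8-Cre-ERT2), came from matings of Sp8+/- mice, while the wild-type embryos came from matings within the C57BL/6 inbred strain, and the labels give C57BL6J as the background of both groups. Genotype and cross cannot therefore be told apart.

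Each library followed its genotype label. Sp8 was at 0.766, 0.460 and 1.14 FPKM in Sp8 null embryos 1, 2 and 3 and at 8.35, 11 and 13.5 FPKM in the wild-type embryos. FPKM counts sequenced fragments for each kilobase of a gene's transcript, relative to the size of the library, so levels can be compared between genes. Total counts were not given, and the other libraries were sequenced to 0.842 to 1.03 times the depth of wild-type embryo 1. All 14 surface ectoderm markers passed the filter on low values, with Trp63, the master factor of stratified epithelium, between 110.4 and 144 FPKM. Limb mesenchyme markers were present as well: their summed level over 15 genes was 203, 339 and 189 FPKM in Sp8 null embryos 1, 2 and 3 and 229.9, 163 and 175 FPKM in wild-type embryos 1, 2 and 3. Sp8 null embryo 2 stood apart in this, with Prrx1, a mesenchymal homeobox gene, at 53.3 FPKM against 3.92 to 16.5 FPKM in the other libraries. Wild-type embryo 1 stood apart in embryonic globin, with Hbb-y at 192 FPKM against 4.46 to 66.0 FPKM elsewhere.

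The sequence before the transcription start was read for the members from RefSeq (build GRCm38.p6), whose promoter table held 9 of the 10 genes, all but Sox9. The stretches of the 3 SoxC genes are shown because these genes gave most of the Sox RNA, and that of Sox2 because its level was lower in every Sp8 null library. Capitals mark 2 motifs, each searched on both strands: the GC box bound by Sp-family zinc fingers, GGGCGG or CCGCCC, and the CCAAT box, CCAAT or ATTGG. Bases inside any annotated transcript of the gene were left off.
Sox11, chr12:27342719-27342968, minus strand: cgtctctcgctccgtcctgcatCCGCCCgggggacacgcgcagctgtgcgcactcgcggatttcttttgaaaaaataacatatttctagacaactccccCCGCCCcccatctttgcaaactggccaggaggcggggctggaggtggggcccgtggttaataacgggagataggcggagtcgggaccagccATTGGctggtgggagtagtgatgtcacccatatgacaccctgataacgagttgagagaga
Sox12, chr2:152398064-152398296, minus strand: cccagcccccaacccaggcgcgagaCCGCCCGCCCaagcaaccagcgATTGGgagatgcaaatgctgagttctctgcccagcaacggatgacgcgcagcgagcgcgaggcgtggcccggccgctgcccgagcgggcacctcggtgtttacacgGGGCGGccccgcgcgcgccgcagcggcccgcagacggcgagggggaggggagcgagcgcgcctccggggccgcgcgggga
Sox4, chr13:28953714-28953949, minus strand: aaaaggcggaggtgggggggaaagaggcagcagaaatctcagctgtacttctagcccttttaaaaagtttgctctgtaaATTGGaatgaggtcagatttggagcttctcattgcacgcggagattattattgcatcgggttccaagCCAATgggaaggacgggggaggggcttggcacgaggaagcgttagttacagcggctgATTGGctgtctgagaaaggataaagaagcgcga
Sox2, chr3:34649745-34649994, plus strand: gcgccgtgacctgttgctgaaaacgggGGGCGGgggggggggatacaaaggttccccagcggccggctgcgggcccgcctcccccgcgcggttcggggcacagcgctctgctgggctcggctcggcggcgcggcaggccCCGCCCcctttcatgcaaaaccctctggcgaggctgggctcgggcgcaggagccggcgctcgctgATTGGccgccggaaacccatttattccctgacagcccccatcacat
In the 250 bases before the RefSeq start, Sox11 held 2 GC boxes and 1 CCAAT box. Sox12 held 3 GC boxes, of which 2 overlap, and 1 CCAAT box. Sox4 held 4 CCAAT boxes, 3 of them in the printed stretch, and no GC box. Sox2 held 2 GC boxes and 1 CCAAT box. Sox8 held 2 GC boxes and no CCAAT box. Sox13, whose window was 72.4% G and C, held neither motif, and nor did Sox5 or Sox21. Sox6, with 6 RefSeq starts, held GC boxes before 1 of them and CCAAT boxes before 2. Of the 32851 promoter windows of the same length in the table, 32.7% held a GC box and 33.8% a CCAAT box. A match here is a run of letters and not a measured binding site.

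In wild-type ectoderm the Sox genes covered a wide range of levels. Sox11 was far above the others at 59.7 ± 5.68 FPKM (SD, n = 3), which is higher than 93.1% of tested genes. Sox13 (12.3 ± 1.22), Sox4 (12 ± 0.373), Sox12 (11 ± 0.582) and Sox6 (10.2 ± 0.301) followed, each in FPKM with SD and n = 3. The ranges of Sox13 and Sox4 overlapped and those of Sox4 and Sox12 met at 11.7 FPKM, while Sox12 stayed just above Sox6. Sox9 was at 6.50 ± 0.887 FPKM, below the range of Sox6, and Sox5 at 2.55 ± 1.11 FPKM. Sox8, Sox21 and Sox2 were under 1 FPKM in each of the 6 libraries. These 3 genes did not reach the filter of at least 1 FPKM in at least 3 libraries, so 7 of the 10 members were tested.

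**Figure D1:**
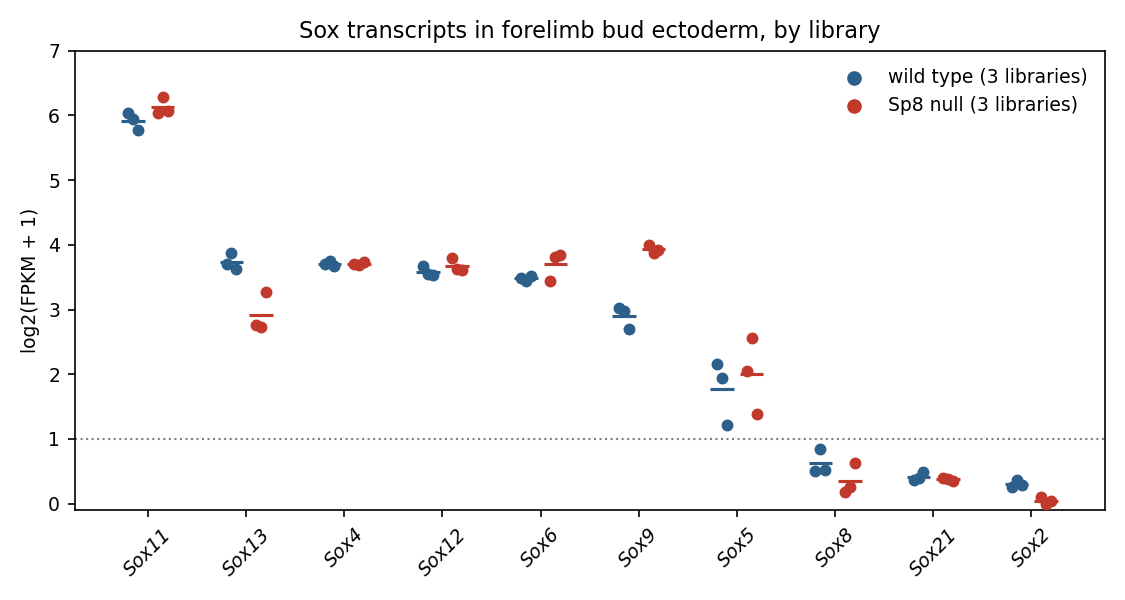
Level of each Sox gene, as log2(FPKM + 1), in the 3 wild-type and 3 Sp8 null libraries, ordered by the wild-type mean. Points are libraries, short lines are group means, and the dotted line is 1 FPKM. Sox13 is above Sox9 in the wild-type libraries and below it in the Sp8 null ones, Sox11 is the highest in all 6 libraries, and Sox8, Sox21 and Sox2 lie under the line.

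Sox9 was the 1 member called higher in the mutant (ENSMUSG00000000567; GRCm38 chromosome 11, 112782224 to 112787760, plus strand, protein-coding). It was at 15, 13.7 and 14.2 FPKM in Sp8 null embryos 1, 2 and 3 and at 7.16, 6.84 and 5.49 FPKM in wild-type embryos 1, 2 and 3. The lowest Sp8 null library was well above the highest wild-type library. The means were 14.3 ± 0.642 and 6.50 ± 0.887 FPKM (SD, n = 3), a ratio of 2.20, and the log2 fold change on the log2(FPKM + 1) scale was 1.03 (SE 0.10). Ordered by that fold change, Sox9 was number 97 from the top of 12133 tested genes. Sox9 went from a mean of 1046.45 to one of 2352.35, a fold change of 2.19, on the count-like scale of the authors' deposited table. In bulk RNA, more cells that express a gene and more RNA per cell cannot be told apart.

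Because Sox9 is also a mesenchymal gene, its levels were set beside the mesenchymal markers of each library. Sp8 null embryo 2 had the highest marker sum of the 6 libraries, at 339 FPKM, and the lowest Sox9 level of the 3 mutants. The sums of Sp8 null embryos 1 and 3 were 203 and 189 FPKM, and those of wild type 163 to 229.9 FPKM. Meis1, Meis2 and Gli3 made up 121 to 153 FPKM of the sum in each library. The other 12 markers, a split chosen after the values were seen, summed to 50.1, 203 and 48.1 FPKM in Sp8 null embryos 1, 2 and 3 and to 82.3, 34.6 and 53.8 FPKM in the wild-type embryos. By limma, 0 of the 12 mesenchymal markers that passed the filter were called, where 6.83% of all tested genes were called. The list is short and Sp8 null embryo 2 widened the spread of the mutants, so nothing is read from that count. Of the 12, 2 had an unadjusted p under 0.05 in limma. The median log2 fold change was 0.47 against -0.06 over all tested genes. The 2 markers with an unadjusted p under 0.05 in limma were also those whose groups did not overlap. Over all tested genes the groups did not overlap for 29.8% (8.63% higher and 21.1% lower). Col3a1, a fibrillar collagen gene, was higher in every mutant library (7.61 to 34.4 against 2.19 to 7.43 FPKM), and Pdgfra, a growth factor receptor gene, was lower in every one (6.01 to 19.5 against 19.8 to 23.8 FPKM). The part of mesenchymal RNA in the Sox9 level was not tested. Without Sp8 null embryo 2 the log2 fold change of Sox9 was 1.06, and leaving out each library in turn gave 0.93 to 1.10.

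**Figure D2:**
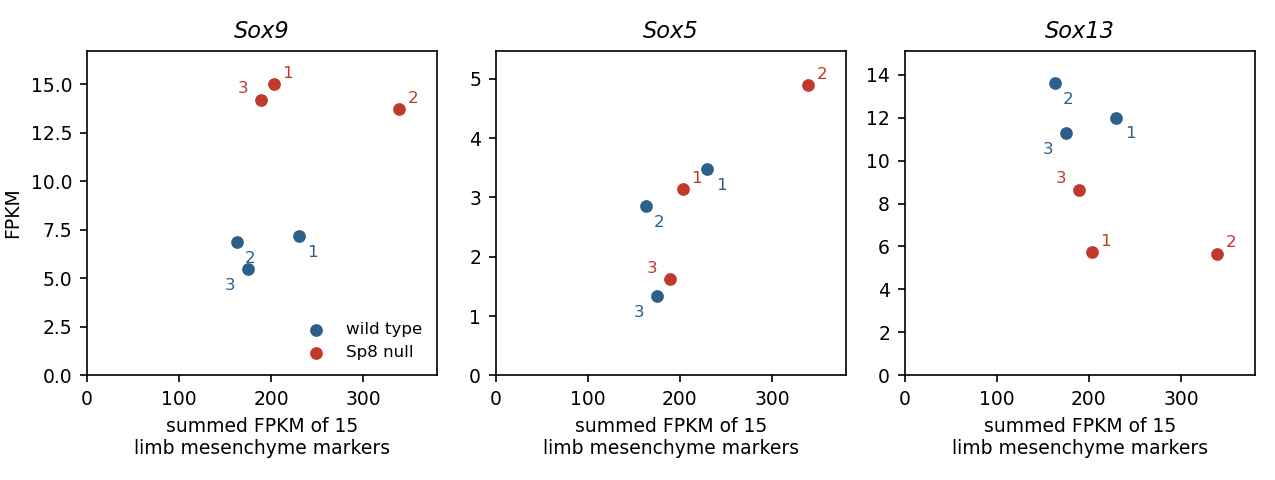
FPKM of Sox9, Sox5 and Sox13 in each library against the summed FPKM of 15 limb mesenchyme markers, with embryo numbers beside the points. The Sox9 levels of the mutants lie between 13.7 and 15 FPKM at marker sums from 189 to 339, while the highest Sox5 level, 4.89 FPKM, is in the library with the highest sum.

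Sox8, the other SoxE gene, was low (chromosome 17, 25565892 to 25570686, minus strand). Its levels were 0.129, 0.198 and 0.538 FPKM in Sp8 null embryos 1, 2 and 3 and 0.426, 0.804 and 0.437 FPKM in the wild-type embryos. The groups overlapped, through Sp8 null embryo 3. For Sox8 the authors' deposited table listed -1.81 as fold change and means of 63.5 in wild type and 24.14 in Sp8 null, so the sign was opposite to that of Sox9. Sox9 exceeded Sox8 by 8.51 to 16.8 times in the wild-type libraries and by 26.4 to 116 times in the mutants. Sox8 shares 329 exonic bases with an antisense gene, 2810468N07Rik, and the use of strand in counting was not given in the sources used here.

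Sox13 was the 1 member called lower in the mutant (ENSMUSG00000070643; chromosome 1, 133382303 to 133424377, minus strand). Sox13 is a SoxD protein also known as an islet cell autoantigen. It was at 5.75, 5.67 and 8.65 FPKM in Sp8 null embryos 1, 2 and 3 and at 12, 13.6 and 11.3 FPKM in the wild-type embryos. The groups did not overlap, although Sp8 null embryo 3 came nearer to wild type than the others. The means were 6.69 ± 1.70 and 12.3 ± 1.22 FPKM (SD, n = 3), a ratio of 0.544, with a log2 fold change of -0.81 (SE 0.16). Means of 1068.52 in wild type and 596.18 in Sp8 null, with -1.73 as fold change, stood in the authors' deposited table. The difference passed the threshold of the fit over all genes with all 6 libraries, and no longer did so in 8 of 15 alternatives, among them the fits without Sp8 null embryo 1 or 2 and without any one of the wild-type embryos; without Sp8 null embryo 3 it was kept. Its log2 fold change stayed between -0.98 and -0.72 throughout.

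The other SoxD genes, which are long genes of many exons, did not share that direction. Sox6 (chromosome 7, 115470872 to 116038796, minus strand) was at 9.84, 13.1 and 13.4 FPKM in Sp8 null embryos 1, 2 and 3 and at 10.2, 9.88 and 10.48 FPKM in the wild-type embryos. Embryos 2 and 3 of the mutant group were above all wild-type libraries and embryo 1 was below them all, and the log2 fold change of 0.22 (SE 0.12) did not pass the threshold. The authors' deposited table had a fold change of 1.25 for Sox6. Sox5 (chromosome 6, 143828425 to 144781977, minus strand) was the most variable of the tested members. It was at 3.14, 4.89 and 1.62 FPKM in the mutants and at 3.48, 2.85 and 1.33 FPKM in wild type, and the groups overlapped over most of their range (log2 fold change 0.22, SE 0.33). Without Sp8 null embryo 2 or without wild-type embryo 3 it was -0.06, and without Sp8 null embryo 3 it was 0.53. The authors' deposited table had a fold change of 1.36 for Sox5. The highest Sox5 level was in Sp8 null embryo 2, the library with the highest mesenchymal sum, and the part of mesenchymal RNA in this level was not tested. Sox5 shares 1330 exonic bases with the antisense gene Sox5os1, which was at most 0.340 FPKM.

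The order within SoxD differed between the genotypes. The ratio of Sox6 to Sox13 was 0.848, 0.724 and 0.930 in wild-type embryos 1, 2 and 3, so that Sox13 was the higher of these genes in each. It was 1.71, 2.32 and 1.55 in Sp8 null embryos 1, 2 and 3, with Sox6 the higher in each. Between the subgroups, the ratio of Sox9 to Sox13 was 0.488 to 0.597 in wild type and 1.64 to 2.60 in Sp8 null. These ratios compare genes inside a library and do not move with scaling between libraries.

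**Figure D3:**
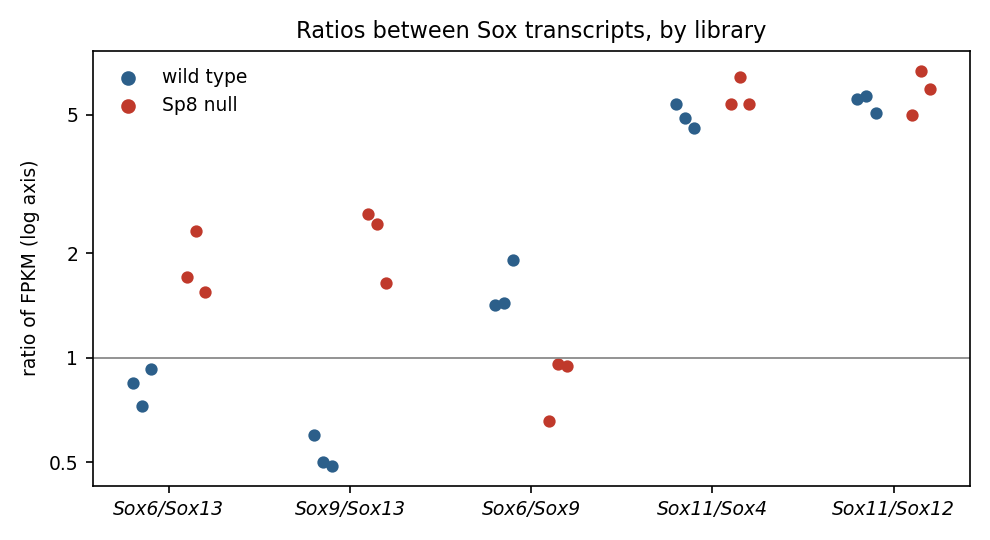
Ratios of FPKM between Sox genes in each library, on a log axis, with 3 wild-type and 3 Sp8 null libraries per ratio. The ratios of Sox6 to Sox13, Sox9 to Sox13 and Sox6 to Sox9 lie on opposite sides of 1 in the 2 genotypes, while those of Sox11 to Sox4 and Sox12 lie between 4.59 and 6.71 in all libraries.

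SoxC genes held most of the Sox RNA in both genotypes. Sox11 (chromosome 12, 27334264 to 27342574, minus strand, a gene of 1 exon) was at 64.4, 76.6 and 66.4 FPKM in Sp8 null embryos 1, 2 and 3 and at 64.8, 60.7 and 53.5 FPKM in the wild-type embryos. The groups met at their edges, and the log2 fold change of 0.21 (SE 0.10) did not pass the threshold. Sox11 lies on the same chromosome as Sp8, 91.5 Mb away. Sox12 (chromosome 2, 152393611 to 152398063, minus strand) was at 12.9, 11.4 and 11.2 FPKM in the mutants and at 11.7, 10.7 and 10.6 FPKM in wild type, with overlap (log2 fold change 0.10, SE 0.08). Sox4 (chromosome 13, 28948919 to 28953713, minus strand, 1 exon) kept within 11.7 to 12.4 FPKM, with 12, 11.9 and 12.3 FPKM in the mutants and 12, 12.4 and 11.7 FPKM in wild type (log2 fold change 0.00, SE 0.07). It did not keep a direction: it was 0.07 and 0.09 under other scalings and -0.02 without wild-type embryo 3.

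The deposited count-scale mean of Sox4 was low for its FPKM. It was 187.18 in wild type in the authors' deposited table, or 3.24 per exonic kilobase and FPKM, where the middle of 11115 tested genes was 22.2 and 0.801% of them lay at or below Sox4. Sox11 and Sox12 were at 39.6 and 37.0 by the same measure. Of the 4795 bases of the Sox4 exon, 2616 are shared with Gm26735, a noncoding gene on the other strand, which was listed at practically 0 FPKM in every library. The part of this overlap in the low mean was not tested.

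Of the SoxB genes, Sox2 (chromosome 3, 34650405 to 34652461, plus strand, 1 exon) was at 0.0747, 0 and 0.0247 FPKM in Sp8 null embryos 1, 2 and 3 and at 0.201, 0.282 and 0.219 FPKM in the wild-type embryos. Every mutant library was below every wild-type library, but all 6 values were too low for the filter. The authors' deposited table listed means of 17.66 in wild type and 2.61 in Sp8 null, with a fold change of -1.75 that is smaller than the ratio of these means. Sox2 lies inside Sox2ot, a long noncoding gene on the same strand with no exonic base in common, which was at most 0.136 FPKM. Sox21 (chromosome 14, 118233232 to 118237030, minus strand) was at 0.317, 0.309 and 0.280 FPKM in the mutants and at 0.286, 0.320 and 0.403 FPKM in wild type, so the groups overlapped. It shares 713 exonic bases with the antisense gene Gm4675.

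In the fit over all 12133 tested genes, 2 of the 7 tested members were called different, Sox9 as higher and Sox13 as lower in Sp8 null, where 6.83% of all tested genes were called (1.68% higher and 5.15% lower). The groups did not overlap for these 2 members, and for 29.8% of all tested genes (8.63% higher and 21.1% lower in Sp8 null). Because the contrast was part of the choice of the members, nothing is read from these counts. The log2 fold changes of the 5 members that were not called lay between 0.00 and 0.22, and the median of all 7 was 0.21 against -0.06 over all tested genes.

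**Figure D4:**
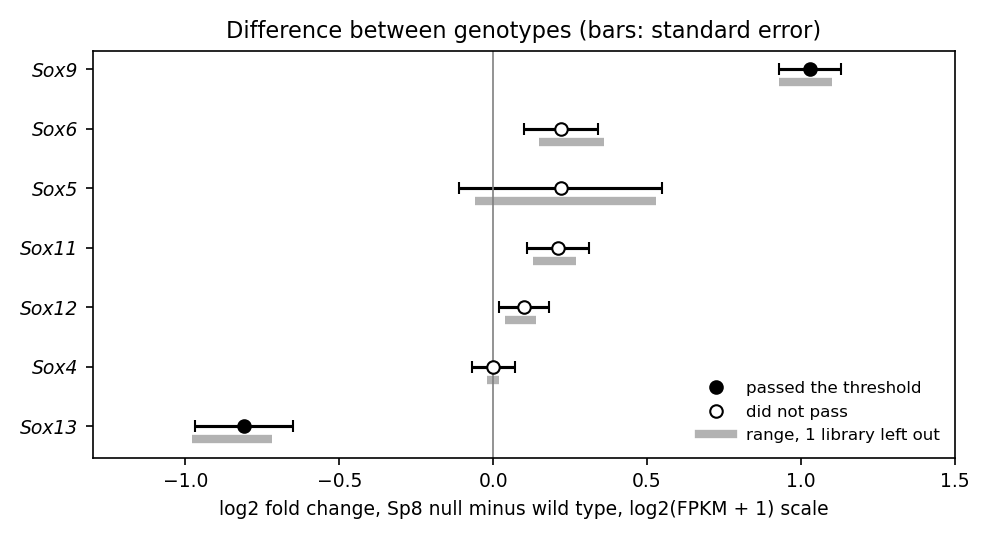
Log2 fold change of the 7 tested Sox genes, Sp8 null minus wild type, on the log2(FPKM + 1) scale, with standard errors. Filled points passed the threshold of the fit over all genes, and grey bars give the range when 1 library is left out. Sox9 lies at 1.03 and Sox13 at -0.81, and the rest lie between 0.00 and 0.22.

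The make-up of the Sox RNA was summed by subgroup. SoxC took 71.7 ± 0.821% of the summed FPKM of the 10 genes in wild type and 71.5 ± 1.45% in Sp8 null (SD, n = 3). SoxE took 6.21, 6.45 and 5.63% in wild-type embryos 1, 2 and 3 and 12.2, 10.1 and 11.4% in Sp8 null embryos 1, 2 and 3. SoxD took 21, 22.3 and 21.9% and 15.2, 17.2 and 18.4% in the same order. The SoxC share thus overlapped between genotypes while those of SoxE and SoxD did not, which restates the levels of Sox9 and Sox13.

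**Figure D5:**
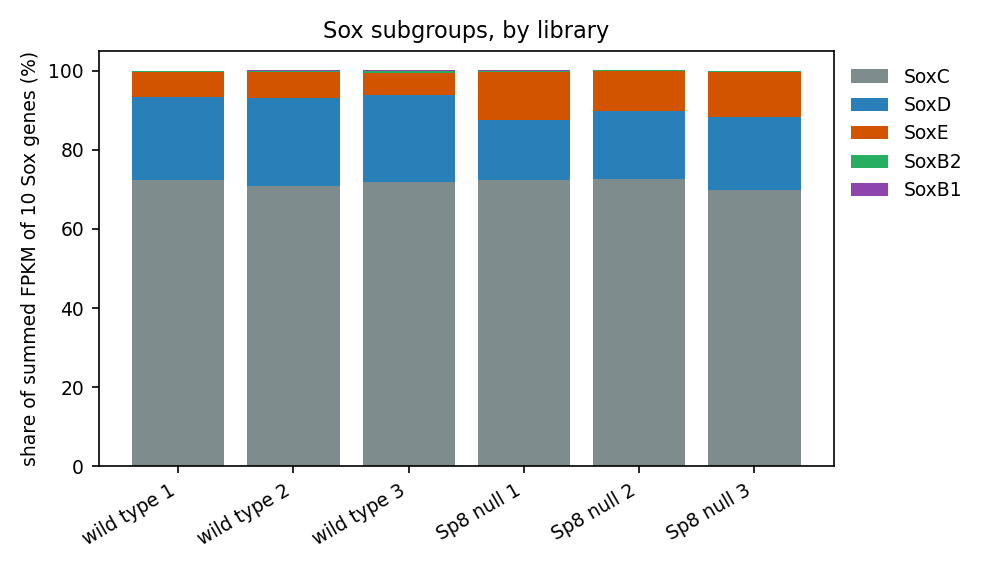
Share of each Sox subgroup in the summed FPKM of the 10 Sox genes, in percent, for each library. SoxC holds 69.9 to 72.5% in every library, and the SoxE share is 5.63 to 6.45% in wild type and 10.1 to 12.2% in Sp8 null.

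The rest of the family was close to silent. Of the 10 other Sox genes, Sox14 alone passed the filter. Sox14 was at 2.29, 1.74 and 2.13 FPKM in Sp8 null embryos 1, 2 and 3 and at 1.88, 1.81 and 1.17 FPKM in the wild-type embryos, and did not differ beyond the spread (log2 fold change 0.23, SE 0.15; adjusted p in limma = 0.396). The other 9 were at most 0.184 FPKM in any library, and Sox1 and Sry were listed at 0 in all 6. Sox10, the SoxE factor of neural crest and glia, was at 0.00901 to 0.102 FPKM. Sox7, Sox17 and Sox18, the SoxF factors of endothelium, were between 0 and 0.184 FPKM.

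Genes that work downstream of Sox9, Sox5 and Sox6 in cartilage were read next. Of 18 cartilage genes, 5 passed the filter and none of these was called (0 higher and 0 lower, median log2 fold change 0.24). Over all tested genes 6.83% were called, and nothing is read from a count over 5 genes. Hapln1, a link protein of the cartilage matrix, was at 102, 74.9 and 95.4 FPKM in Sp8 null embryos 1, 2 and 3 and at 69.2, 84.1 and 76.2 FPKM in the wild-type embryos, the smallest p-value of the list (log2 fold change 0.24, SE 0.13; adjusted p in limma = 0.308). Col2a1, the type II collagen gene and a direct Sox9 target in cartilage, was at 46.2, 32.1 and 44.0 FPKM in the mutants and at 47.7, 48.1 and 42.9 FPKM in wild type (log2 fold change -0.19, SE 0.14; adjusted p in limma = 0.440). Its level was thus not higher where Sox9 RNA was, and the action of Sox9 on this gene in the ectoderm was not tested. Acan, the aggrecan gene, was at most 0.0224 FPKM, and Matn1, Snorc (listed as 3110079O15Rik) and Nkx3-2 were listed at 0 in all libraries.

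Among 17 partner proteins and modifiers of Sox factors, 13 were tested and 1 was called, as lower, where 5.15% of all tested genes were called lower, and nothing is read from that count. This was Tcf7, an HMG-box factor of the Wnt pathway related to the Sox proteins, at 8.99, 8 and 10.2 FPKM in Sp8 null embryos 1, 2 and 3 and at 32.8, 33.0 and 27 FPKM in the wild-type embryos (log2 fold change -1.67, SE 0.11; adjusted p in limma = 0.000299). Lef1, of the same HMG-box family, did not pass the threshold at 122 and 109.8 FPKM on average (log2 fold change 0.16; adjusted p in limma = 0.370). Ctnnb1, which encodes beta-catenin, was at 470.1 and 452 FPKM (log2 fold change 0.05, and -0.04 without Sp8 null embryo 3; adjusted p = 0.792 in limma). Of 6 genes linked to SoxC factors, 5 were matched and tested, and none was called. The smallest p-value was that of Dcx, a neuronal microtubule protein, at 1.60, 6.14 and 1.64 FPKM in the mutants and 1.99, 0.457 and 1.27 FPKM in wild type (log2 fold change 0.77, SE 0.43; adjusted p in limma = 0.325). Its highest value was in Sp8 null embryo 2, the library with the most mesenchymal marker RNA, and the part of mesenchymal RNA in this value was not tested.

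Markers of cell types in which Sox genes are prominent were also counted. Of 10 neural progenitor markers, Nes alone was tested, and it was lower in the mutant (4.75, 4.96 and 4.83 FPKM against 6.68, 7.47 and 7.07 FPKM; log2 fold change -0.46, SE 0.08; adjusted p in limma = 0.0185). That call was lost in 7 of 15 alternatives, among them the fits without any one of the Sp8 null embryos and without wild-type embryo 2 or 3, at -0.50 to -0.43 with 1 library left out. The other 9 markers of this list were at most 0.0871 FPKM, with Fabp7, Neurog2, Olig2 and Sox1 at 0. Of 11 markers of neural crest, glia and melanoblasts, 2 were tested and none was called, and Foxd3 and Tyrp1 were at 0.0109 FPKM or less. Of the 12 endothelial markers, 1 was tested and none was called, and the summed level was 2.66 to 4.73 FPKM in the mutants and 2.23 to 3.24 FPKM in wild type. The groups did not overlap for 2 of the 12, which are named here after the values were seen. Pecam1 and Cdh5, adhesion proteins of endothelium, were too low for the filter but higher in every mutant library (0.154 to 0.358 against 0.0466 to 0.123 FPKM for Pecam1, and 0.0242 to 0.359 FPKM against 0 in wild type for Cdh5). Both were highest in Sp8 null embryo 1. The groups did not overlap for 29.8% of all tested genes either, and nothing is read from these 2. The part of endothelial RNA in the Sox levels was not tested. The groups did not overlap for 6 of the 14 surface ectoderm markers, of which 1 was higher in Sp8 null and the rest lower. Over all tested genes this share was 29.8% (8.63% higher and 21.1% lower). By limma, 7 of the 14 had an unadjusted p under 0.05. Of the 14, 1 was called higher and 2 lower, where 6.83% of all tested genes were called. Tfap2a, an early ectoderm factor, was higher (log2 fold change 0.52, limma adjusted p = 0.0163), and Epcam, an epithelial adhesion protein, was lower (-0.53, limma adjusted p = 0.0313). The other called marker, Krt17, a keratin gene, was under 1 FPKM in the mutants (0.771 to 0.944) and passed the filter only through wild type (1.59 to 1.80 FPKM), so its call is not read as a result. The Tfap2a call was lost without any one of the wild-type embryos (0.45 to 0.60 with 1 library left out), and that of Epcam without any library other than Sp8 null embryo 3 (-0.63 to -0.43).

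The 5 tested genes whose profile over the 6 libraries lay closest to that of Sox9 were Asprv1, Gm13219, 1700016K19Rik, Map1b and Irx5. The root-mean-square difference of their log2(FPKM + 1) profiles from that of Sox9, after each gene's mean was subtracted, was 0.083, 0.087, 0.095, 0.099 and 0.107. All 5 were picked for a profile like one that separates the genotypes, so no test is given. Asprv1, a protease of the upper epidermis, was at 7.85, 7.55 and 7.77 FPKM in Sp8 null embryos 1, 2 and 3 and at 3.26, 3.21 and 3.04 FPKM in the wild-type embryos. Map1b, a microtubule-associated protein, had 26.1, 21.3 and 26.6 FPKM in the mutants against 13.4, 11 and 9.53 FPKM in wild type.

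The 10 members lie on 10 different chromosomes, and the nearest tested protein-coding gene on each side was read for each. Of these 20 neighbours, 1 was called, a share close to the 6.83% of all tested genes. This was Slc39a11, a zinc transporter gene 457 kb beyond Sox9, at 1.21, 0.648 and 0.856 FPKM in Sp8 null embryos 1, 2 and 3 and at 1.85, 2.45 and 1.77 FPKM in the wild-type embryos (log2 fold change -0.67, SE 0.15; adjusted p in limma = 0.0435). Slc39a11 was under 1 FPKM in Sp8 null embryos 2 and 3 and would not have passed the filter without wild type. Its call is therefore not read as a result. The call was lost in 11 of 13 alternatives, among them the fits without Sp8 null embryo 2 or 3 and without any one of the wild-type embryos, with log2 fold changes of -0.78 to -0.57 when 1 library was left out. On the other side of Sox9 the nearest tested gene was Map2k6, 2257 kb away, at 15.2, 17.2 and 18.4 FPKM in the mutants and at 14.5, 14.7 and 14.8 FPKM in wild type (log2 fold change 0.20, SE 0.08; adjusted p in limma = 0.213). The neighbours of Sox13, Plekha6 and Snrpe, had log2 fold changes of 0.37 and -0.23 (limma adjusted p = 0.0811 and 0.0976).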

How the data were processed

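RNA was measured in 6 libraries of polyadenylated RNA from forelimb bud ectoderm, 3 Sp8 null and 3 wild type, grouped by sample title. The authors deposited FPKM with a status for each estimate, for gene models of Ensembl build 87 per the file headers. A deposited comparison has a mean signal per group, normalized and count-like. Beside it the authors deposited a fold change, used here as a score with a sign, and a p-value. The submitters' processing notes name FastQC, SAMtools, TopHat2, DESeq2 and Cufflinks with GRCm38, without roles. The use of strand and the test behind the deposited p-value were not given in the sources used here. The means headed control and sample were taken as wild type and Sp8 null.

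FPKM was analysed as log2(FPKM + 1), keeping the 12133 genes that reached 1 FPKM in 3 or more libraries. The fit was limma's (version 3.58.1, run under R 4.3.3), with genotype as the only term and a trend of variance on mean. P-values were two-sided and adjusted by Benjamini-Hochberg over all tested genes, and called below 0.05. The script was tested on simulated data. Fold changes on this scale understate those of low genes. Whole reads were not recovered, so no counting interval is given. Relative depth came from the commonest ratio of FPKM values under 0.1 between libraries. Coordinates, exons and overlaps are from GENCODE M21 (GRCm38). Alternatives changed the pseudocount, filter, scaling, replicate block, sample-name number (names start with 4 or 5, meaning not stated), failed estimates and each library in turn.

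Named genes were the Sox members, Sp8, called genes of the lists or else the one with the smallest p-value, the 5 genes most like Sox9 and the nearest tested neighbours. Other genes named were chosen after their values were seen. Members and lists were chosen with earlier results of these data known.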

Additional observations from a re-analysis of the deposited data

How the results depend on the processing

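Counts of calls moved most. In all, 829 genes were called, against 342 when low values were not filtered, 545 when the number that opens a sample name was a covariate, 163 with only the sample names that start with 5, and 328 with the replicate block. The count ranged from 213 to 665 with 1 library left out. The 2 called Sox members became 1, Sox9, with no filter, with only the sample names that start with 5, with the replicate block, and without each library other than Sp8 null embryo 3 (range 1 to 2). The called list and marker genes fell from 5 to 2 with no filter, 3 with that number as a covariate, 1 with only the names starting with 5, 1 with the replicate block, and 1 to 4 with 1 library left out. Sox4 changed sign without Sp8 null embryo 3 (-0.01) and without wild-type embryo 3 (-0.02), and Sox5 without Sp8 null embryo 2 (-0.06) and without wild-type embryo 3 (-0.06). Ctnnb1 did so without Sp8 null embryo 3 (-0.04). With 1 library left out, Sox4 ranged from -0.02 to 0.02, Sox5 from -0.06 to 0.53 and Ctnnb1 from -0.04 to 0.14. The log2 fold change of Sox9 was 0.93 to 1.13 over 15 alternatives, which is a description only, since its rise was part of the choice of the genes. Sox6, Sox11 and Sox12 kept their direction. The cause was not tested, apart from the fewer samples or the more genes tested by construction. The share of calls that were higher was 24.6%, but 37.3% under median-of-ratios and 40.9% under upper-quartile scaling, 41.3% without wild-type embryo 1 and 14.6% without Sp8 null embryo 3. Embryo numbers gave no sign of pairing, since the deviations of same-numbered libraries correlated at -0.164, -0.145 and -0.0699. Depth limits Sox2, Sox8 and Sox21, and the small numbers of embryos limit every comparison. The p-values set the difference between the groups against the spread between embryos, and they cannot tell genotype from cross.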
